A study of Mus musculus with 46 samples.

Results

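The 4 Sall genes (Sall1, Sall2, Sall3 and Sall4) were followed through reprogramming of mouse embryonic fibroblasts (MEF) into induced pluripotent stem cells (iPSC). They were taken by symbol and make up 4 of the 37108 genes in the gene table and 10 of the 106520 transcripts in the transcript table. All cells of the time course received retroviral Oct4 together with either native Nanog (NanogWT) or NanogBiD, in which an N-terminal piece of SS18 that contacts the BAF remodelling ATPase BRG1 is joined to the N-terminus of Nanog (NanogN70 in the labels). Libraries were made at day (D) 0, 1, 3, 5, 7, 8, 10 and 12, with 2 libraries per combination and day except 1 for NanogBiD at D8, which gave 15 libraries of NanogBiD and 16 of NanogWT. D0 is the end of infection, so the vectors were already present, and at about D7 both combinations passed from the induction medium iCD3 to stem cell medium with LIF. The starting cells were OG2 MEF carrying an Oct4-GFP reporter (2 libraries), and the reference was OG2 mouse embryonic stem cells (mES, 1 library). A separate transcript table held the MEF and mES again together with 12 iPSC samples. These comprised 6 samples derived with NanogBiD (3 labelled iPSC1 and 3 labelled iPSC2) and 6 derived with NanogWT (4 labelled iPSC1 and 2 labelled iPSC2). The NanogWT iPSC1 samples numbered 1 and 1-2 may be the same clone, which the labels do not settle. They were kept as separate samples and were averaged as an alternative. The labels do not say what iPSC1 and iPSC2 stand for, and each tag occurs under both combinations. The word line is used here only as a short name for this tag. Line and passage number cannot be told apart in the iPSC, and the labels do not say that replicates came from separate animals or infections, so p-values measure the spread between these libraries.

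Sall genes encode zinc finger transcription factors related to Drosophila spalt. A short N-terminal motif lets them recruit the NuRD complex, a histone deacetylase and nucleosome remodeller, and members can pair with one another through a glutamine-rich region. SALL4 is needed by the early embryo and by embryonic stem cells, where it shares sites with OCT4, NANOG and SOX2. SALL1 is also present in embryonic stem cells and is known for kidney, limb and ear development. SALL3 acts in neural and craniofacial development. SALL2 is the most divergent member and is expressed in brain and in many somatic cells.

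The labels were checked against marker genes. The 10 pluripotency markers listed were all at 0 in MEF and summed to 3625 FPKM (fragments per kilobase of transcript, scaled to the mapped fragments of the library) in mES. The 10 fibroblast markers summed to between 5759 and 6758 FPKM in MEF and to 8.35 FPKM in mES, with Col3a1, Lum, Postn, Prrx1 and Twist2 at 0. Ss18 supplies the piece fused to Nanog, and its gene stood at 61.7 ± 6.09 FPKM (SD, n = 2) with NanogBiD at D0, against 28.3 ± 3.23 with NanogWT. Low values were whole multiples of a gene-specific step, taken as 1 counted read or fragment. Relative depth computed from these steps was 0.872 to 1.10 in the 20 libraries of D0 to D7. At D8 to D12 it was 0.81 to 1.02 with NanogBiD and 1.85 to 3.18 with NanogWT, so the late NanogWT values rest on more reads. All 4 Sall genes fell on whole steps in all 34 libraries, within 0.1 of a step.

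In MEF the family was almost wholly Sall2. Sall2 made up 94.3% of the summed FPKM of the 4 genes (6.68 FPKM), Sall1 made up 5.34%, Sall3 0.393%, and Sall4 was at 0. In mES the sum was 88.7 FPKM, of which Sall4 made up 64.7%, Sall1 26.7%, Sall2 4.79% and Sall3 3.77%. FPKM is per length, so levels can be set side by side between genes. With NanogBiD the sum passed from 5.22 FPKM at D0 to 14.2 at D5, 42.1 at D7 and 80.2 at D10, and at D12 Sall4 made up 50.4% and Sall2 16.9%. With NanogWT it was 4.49 FPKM at D0, 6.04 at D7 and 11.9 at D10, and Sall2 still held the largest share at D12 (39.5%, against 20.2% for Sall4). A falling share was not a falling level: mean Sall2 was 4.59 FPKM at D0 and 16.9 at D12 with NanogBiD, while its share went from 88.0% to 16.9%. None of these shares was tested.

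**Figure D1:**
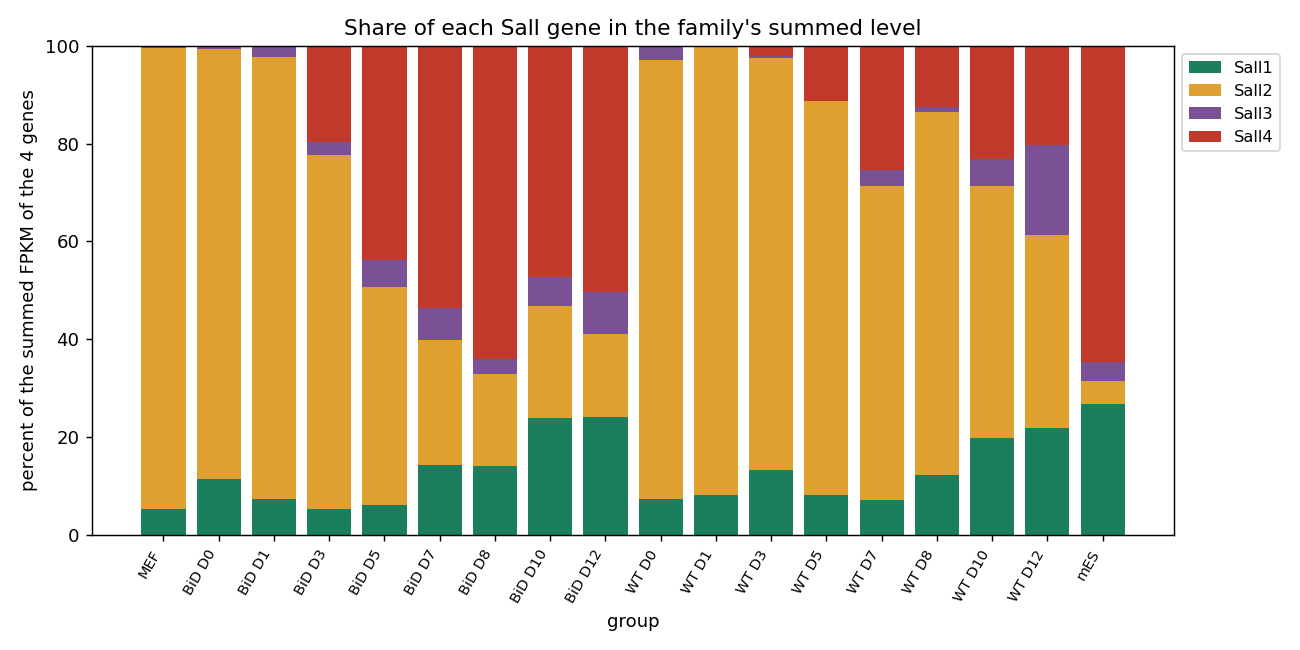
Share of each Sall gene in the summed level of the 4 genes (percent of the summed FPKM, y axis) in each group (x axis; means of 2 libraries, 1 for mES and BiD D8; BiD, Oct4 with NanogBiD; WT, Oct4 with NanogWT). Sall2 fills 94.3% of the MEF bar and 4.79% of the mES bar, and Sall4 goes from 0 at D0 to 53.7% at D7 with NanogBiD and to 25.3% at D7 with NanogWT.

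Sall4 (ENSMUSG00000027547.17, chr2:168748332-168767943, minus strand, GRCm38) was the first member called between the combinations. It was listed at 0 in the 2 MEF libraries and in all 8 libraries of D0 and D1. A count of 0 there allows up to 3 steps, which is 0.0326 to 0.0384 FPKM depending on the library and covers counting error only. None of the 7 widely used genes looked at, such as Actb and Gapdh, was at 0 in any library. At D3 Sall4 was at 1.49 and 1.27 FPKM with NanogBiD, which are 127 and 115 steps, and at 0.0503 and 0.136 FPKM with NanogWT, which are 4 and 11 steps. The 2 pairs of libraries did not overlap. The log2 difference, on the log2(FPKM + 1) scale used for every difference here, was 1.12 (95% interval 0.47 to 1.77, limma adjusted p = 0.0252). A difference was called at an adjusted p under 0.05 and a size of at least 1. In this comparison 3.7% of the 16842 genes tested were called, and Sall4 ranked 207 from the top by difference. On the log2(FPKM + 1) scale the call at D3 was a narrow one. It was lost with any 1 of the 4 D3 libraries left out (differences of 1.05 to 1.19), while all of these kept the direction. With a pseudocount of 0.1 and all libraries the difference was 2.97 (limma adjusted p = 0.000173) and was called.

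On the log2(FPKM + 1) scale, which compresses low values, the Sall4 difference was larger at each tested day up to D10. The ratio of the mean FPKM, NanogBiD over NanogWT, did not grow in that way over the tested days: it was 14.8 at D3 (NanogWT at 4 and 11 steps), 11.3 at D5, 14.8 at D7, 13.8 at D10 and 9.57 at D12. At D8, with 1 NanogBiD library and no test, the ratio was 43.6. At D5 the values were 5.59 and 6.88 FPKM with NanogBiD and 0.503 and 0.603 with NanogWT, a difference of 2.22 (SE 0.31, adjusted p = 4.14e-05) where 6.48% of genes were called. At D7 they were 22.4 and 22.8 FPKM against 1.43 and 1.63, a difference of 3.22 (SE 0.31, adjusted p = 2.49e-07) where 10.4% of genes were called. Sall4 ranked 59 of 16842 at D5 and 32 at D7. At D8 the single NanogBiD library was at 38.4 FPKM and the 2 of NanogWT at 0.543 and 1.22, with no test. At D10 the values were 44.4 and 31.6 FPKM against 1.36 and 4.13, a difference of 3.47 (SE 0.31, adjusted p = 2.51e-08) where 27.8% of genes were called. At D12 they were 59.5 and 41.3 FPKM against 3.01 and 7.51, a difference of 3.11 (SE 0.31, adjusted p = 1.13e-07) where 23.4% of genes were called. No NanogWT library of any day reached the lower NanogBiD library of D7. At D12 the NanogBiD mean was 87.7% of the mES level of 57.4 FPKM, which lay inside the range of the 2 libraries, while the NanogWT mean was 9.17% of it.

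Sall4 was also the only member that changed by D7 with NanogWT. Against D0 it was higher at D7 by 1.34 with NanogWT (SE 0.31, adjusted p = 0.00185, 17.7% of genes called) and by 4.56 with NanogBiD (SE 0.31, adjusted p = 6.84e-10, 18.8% called). Since D0 was at 0, these values depend on the pseudocount, and the fold is a lower bound: the lowest D7 library was at least 37.3-fold above 3 steps at D0 with NanogWT and at least 641-fold with NanogBiD. The 2 changes differed by 3.22 (SE 0.44, adjusted p = 4.88e-05), in a contrast where 10.1% of genes were called. With both combinations at 0 at D0, that value repeats the D7 difference. Of the 272 tested genes at 0 in all 10 libraries of MEF, D0 and D1, 6 were called higher with NanogBiD at D3. Of all 16842 genes tested, 210 (1.25%) were. To be tested, the 272 needed 1 FPKM in at least 2 libraries of D3 or later, so each rises by how the set was made. Sall4 was the only one of the 6 that has a name other than a provisional symbol, a comparison chosen after the values were seen. Sall4 shares 1801 bases of its span with Gm14261, a noncoding gene on the other strand. Gm14261 read at most 2.92 FPKM in the time course. The strand used in counting was not given, so reads from the shared bases cannot be told apart.

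**Figure D2:**
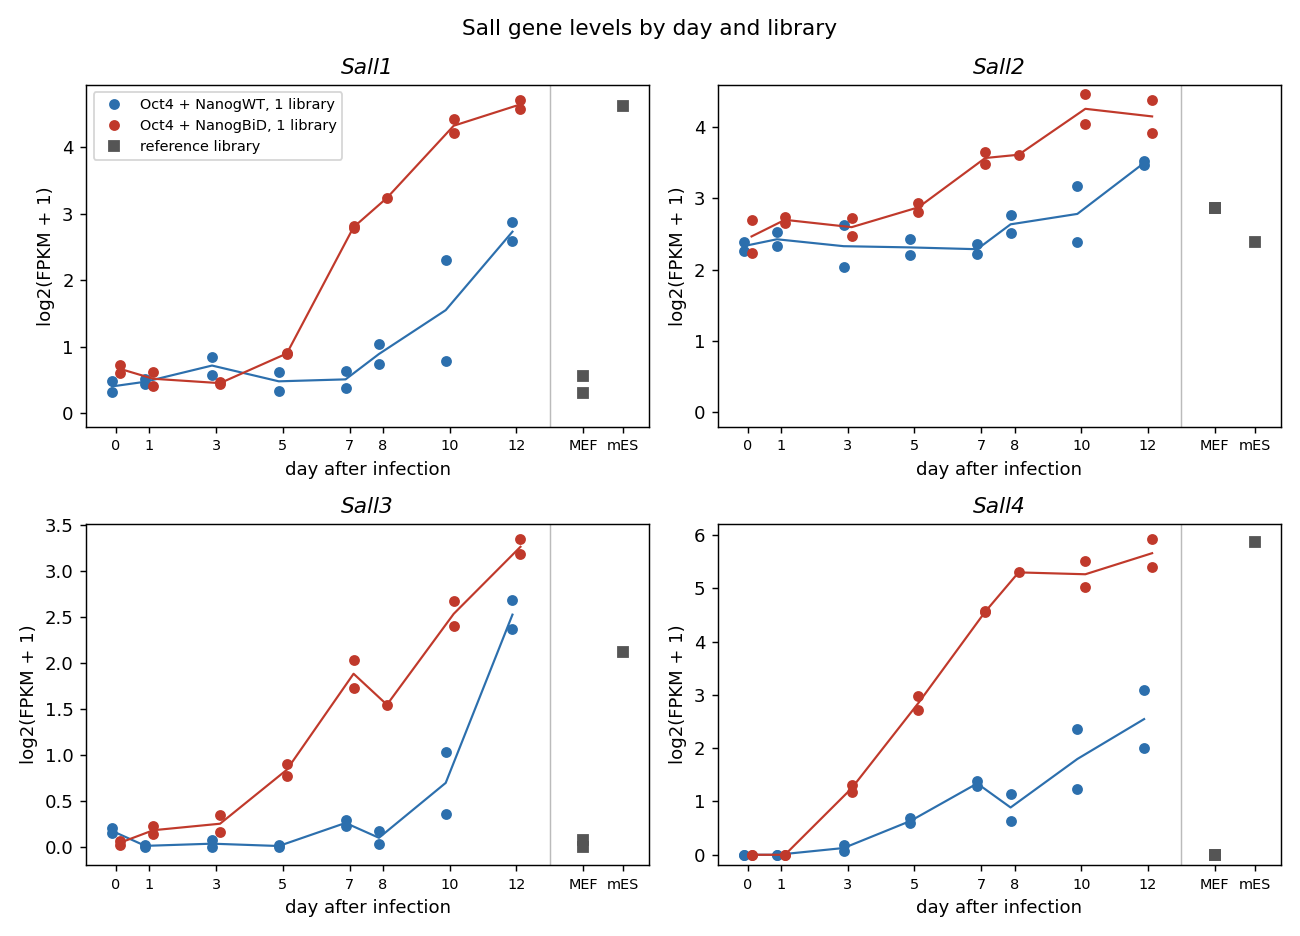
Level of each Sall gene as log2(FPKM + 1) (y axis) in every library by day (x axis); circles are libraries, lines join the mean of each day (red, NanogBiD; blue, NanogWT) and grey squares are 2 MEF libraries and 1 mES library. Sall4 leaves 0 at D3, Sall3 is at 0.711 FPKM or more with NanogBiD from D5 on, Sall1 has its first call at D7, and Sall2 is at 3.09 FPKM or more in every time-course library.

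Sall1 (ENSMUSG00000031665.7, chr8:89027235-89044162, minus strand) was first called at D7. From D0 to D3 its libraries lay between 0.249 and 0.808 FPKM, and MEF at 0.234 and 0.480. By day, the NanogBiD pair was above the NanogWT pair at D0 (0.530 and 0.655 against 0.405 and 0.249) and below it at D3 (0.360 and 0.382 against 0.808 and 0.500), the pairs overlapped at D1, and none of these differences was called. With NanogBiD the 2 libraries read 0.870 and 0.865 FPKM at D5 and 6.04 and 5.90 at D7. The single D8 library read 8.46 FPKM, the D10 libraries 17.6 and 20.6, and the D12 libraries 25.4 and 22.9. The largest step in the mean was the 6.88-fold one from D5 to D7. With NanogWT the libraries read 0.542 and 0.265 FPKM at D5, 0.556 and 0.307 at D7, 0.681 and 1.05 at D8, 0.731 and 3.97 at D10 and 5.03 and 6.33 at D12. The NanogWT mean at D12 (5.68 FPKM) thus stood where NanogBiD had been at D7 (5.97 FPKM), and their ranges overlapped.

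The Sall1 difference was not called at D5 (0.42, 95% interval -0.19 to 1.03, adjusted p = 0.362). It was 2.29 at D7 (SE 0.29, adjusted p = 7.27e-06), 2.77 at D10 (adjusted p = 1.68e-07) and 1.92 at D12 (adjusted p = 1.86e-05). Against D0, Sall1 rose by D7 with NanogBiD (2.13, adjusted p = 6.80e-06), and with NanogWT the difference was 0.11 (95% interval -0.50 to 0.71). By D12 it rose in both, by 3.98 with NanogBiD (adjusted p = 6.78e-10, 34.7% of genes called) and by 2.33 with NanogWT (adjusted p = 2.83e-06, 16.2% called). The changes to D7 differed by 2.02 (adjusted p = 0.00193) and those to D12 by 1.65 (adjusted p = 0.00383, 23.9% called). The D12 call was lost with a pseudocount of 0.1, where the difference was 1.36 and the adjusted p was 0.14. At D12 NanogBiD was at 102% of the mES level of 23.7 FPKM, and NanogWT at 24.0%.

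Sall3 (ENSMUSG00000024565.9, chr18:80966376-80986771, minus strand) rose from almost nothing and ended above mES in both combinations. It was at 0 in 1 MEF library and in 1 of the 2 NanogWT libraries at each of D1, D3 and D5, and no early library passed 0.273 FPKM up to D3. With NanogBiD it read 0.711 and 0.874 FPKM at D5, which are 86 and 112 steps, whereas the 2 NanogWT libraries held 2 and 0 steps. The difference of 0.83 at D5 had an adjusted p of 0.00238 but stayed under the size limit on the log2(FPKM + 1) scale. With a pseudocount of 0.1 it was 3.05 and was called. At D7 the values were 2.33 and 3.10 FPKM against 0.228 and 0.172, a difference of 1.62 (SE 0.18, adjusted p = 1.08e-06). At D8 the NanogBiD library was at 1.92 FPKM and those of NanogWT at 0.0213 and 0.126.

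By D10 Sall3 was at 4.27 and 5.38 FPKM with NanogBiD and at 0.281 and 1.05 with NanogWT, a difference of 1.84 (SE 0.18, adjusted p = 5.36e-08). The levels were closer at D12, with 8.07 and 9.19 FPKM against 5.42 and 4.18. The D12 difference was 0.74 (95% interval 0.37 to 1.11, adjusted p = 0.00165), under the size limit. These D12 means were 258% and 143% of the mES level of 3.35 FPKM. Against D0 the D12 change was 3.22 with NanogBiD and 2.35 with NanogWT (adjusted p of 1.54e-11 and 3.25e-09). The difference between the 2 changes, 0.87 (adjusted p = 0.00992), was under the size limit, and at D7 it was 1.75 (adjusted p = 7.09e-05).

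Sall2 (ENSMUSG00000049532.11, chr14:52311172-52328762, minus strand) was the member expressed from the start. It read 6.30 FPKM in both MEF libraries and between 3.09 and 5.70 FPKM in the 12 libraries of D0 to D3. By day, the combinations overlapped at D0 and D3 and were apart at D1 (5.28 and 5.70 FPKM with NanogBiD against 4.02 and 4.74), and none of these differences was called. With NanogBiD the libraries read 6.02 and 6.64 FPKM at D5, 11.6 and 10.1 at D7, 11.2 at D8, 15.4 and 21.1 at D10 and 14.1 and 19.7 at D12. With NanogWT they read 3.59 and 4.37 FPKM at D5, 3.64 and 4.12 at D7, 4.68 and 5.79 at D8, 4.23 and 8.03 at D10 and 10.1 and 10.4 at D12. From D5 on, every NanogBiD library was above both NanogWT libraries of its day. The difference was 0.56 at D5 (adjusted p = 0.124), 1.28 at D7 (SE 0.24, adjusted p = 0.000477), 1.47 at D10 (adjusted p = 3.60e-05) and 0.65 at D12 (adjusted p = 0.0306, under the size limit).

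Sall2 ended farther above its mES level than the other members did. The mES library was at 4.25 FPKM, and at D12 the means were 398% of it with NanogBiD and 242% with NanogWT. The change from D0 to D7 was 1.10 with NanogBiD (adjusted p = 0.00102) and -0.04 with NanogWT (95% interval -0.55 to 0.46), and the changes differed by 1.14 (adjusted p = 0.0274). Those calls depend on scaling and on single libraries. The D7 change was 0.81 after quantile normalization and 0.86 without replicate 1 of NanogBiD at D0, and the difference of changes lost its call without any 1 of 5 of the 8 libraries (lowest value 0.91). By D12 the changes were 1.68 and 1.17 (adjusted p of 6.03e-06 and 0.000722), the latter 0.88 after quantile normalization.

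All 4 members were called higher with NanogBiD at D7 and at D10, against 1 of 4 at D3 and at D5 and 2 of 4 at D12 (Sall1 and Sall4). Of all genes, 1.25% were called higher at D3, 3.2% at D5, 5.79% at D7, 15.4% at D10 and 13.5% at D12. At D0 and D1, where 0.76% and 1.33% of genes were called, none of the 3 members with any reads was called, with differences between -0.13 and 0.27. In the plot of differences by day Sall4 lies above the other members from D3 on, and Sall2 has the smallest difference from D7 on. At D8 the untested differences were 4.41 for Sall4, 2.35 for Sall1, 1.45 for Sall3 and 0.97 for Sall2. Replicate 2 of NanogWT at D10 read higher than replicate 1 for all 4 genes. With 1 of the D10 libraries left out in turn the difference was 2.91 to 4.03 for Sall4 and 2.01 to 3.54 for Sall1, and both calls were kept.

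**Figure D3:**
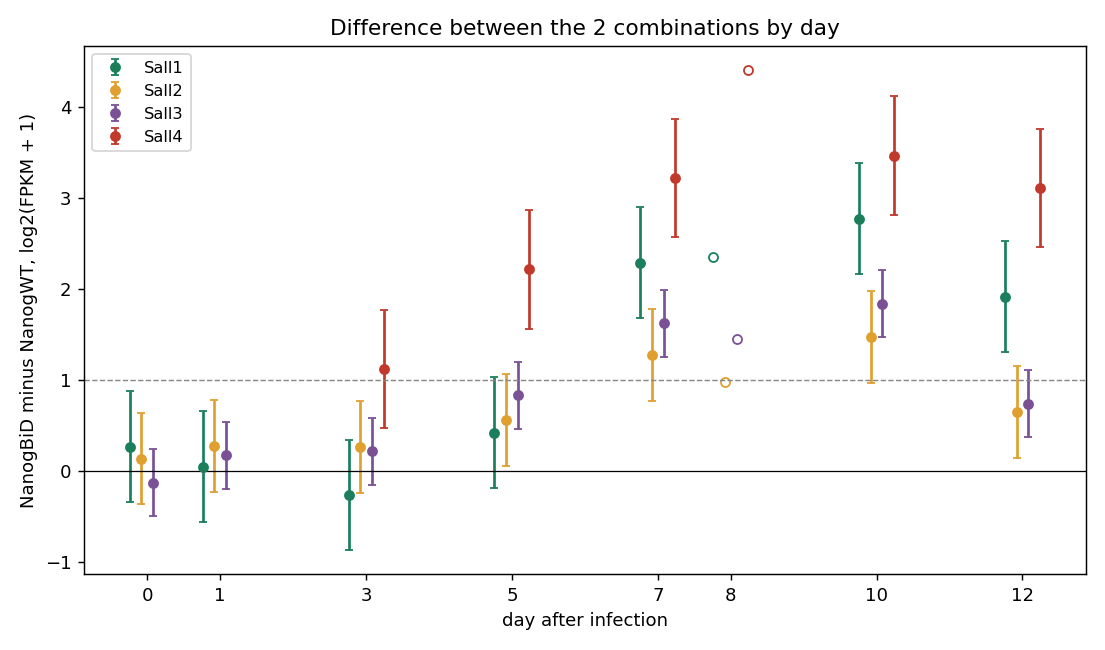
Difference between the combinations, NanogBiD minus NanogWT, in log2(FPKM + 1) (y axis) by day (x axis); bars are 95% intervals from limma, open circles are D8, which has 1 NanogBiD library and no test, and the dashed line is the size limit of 1. Sall4 is drawn from D3, since it was at 0 before, and lies above the other 3 genes at every day from D3 to D12.

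Marker genes of several cell types moved along with these values. The 10 pluripotency markers summed to 85.7 and 89.0 FPKM at D7 with NanogBiD and to between 0.954 and 1.87 with NanogWT, and at D12 to 1144 to 2173 against 128 to 225. The 10 fibroblast markers summed to 303 to 446 FPKM at D12 with NanogBiD and to 3016 to 3464 with NanogWT. The 7 neural markers, a tissue where Sall2 and Sall3 are also expressed, summed to 401 to 571 FPKM at D12 with NanogBiD, 274 to 334 with NanogWT, 52.7 to 87.7 in MEF and 42.3 in mES. Most of that was the tubulin gene Tubb3 (385 ± 89.3 and 240 ± 24.7 FPKM, n = 2 each). The proneural factor Neurog2 was at 11.7 ± 1.26 and 6.14 ± 2.17 FPKM at D12 and at 0 in MEF and mES. The trophoblast list summed to 33.3 to 62.2 FPKM with NanogBiD at D12 against 1.73 to 4.50 with NanogWT and 54.9 in mES. Its member Tfap2c, at 27.5 ± 5.12 FPKM with NanogBiD at D12 (n = 2), is also among the pluripotency factors listed. Of the 6 trophoblast members, 2 were at 1 FPKM or more in both NanogBiD libraries of D12, 0 in both of NanogWT and 5 in mES. The primitive endoderm list summed to 167 to 174 FPKM with NanogBiD at D12, 1285 to 1501 with NanogWT and 1088 to 1406 in MEF. In MEF its members Foxa2 and Sox17 were at 0, and 4 of the 8 were at 1 FPKM or more in both libraries. At D12 3 of the 8 were so with each combination, so a high sum does not mean that the whole list was expressed. The kidney and limb mesenchyme list, a setting where Sall1 is known to act, summed to 8.06 to 8.18 FPKM with NanogBiD at D12 and to 80.7 to 85.7 with NanogWT. In bulk RNA, more cells of a type and more RNA per cell cannot be told apart, and the part of cell makeup in the Sall levels was not tested.

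Genes with a like time pattern differed between members. Likeness was Pearson's r of log2(FPKM + 1) over the 31 time-course libraries, which share culture days, and it is given as a description. Nearest to Sall4 were Epcam (r = 0.976), an epithelial adhesion gene, the nuclear receptor Nr5a2, the PRC2 cofactor Jarid2 and the Nodal co-receptor Tdgf1 (each 0.974), and Fam222a (0.973). Nearest to Sall1 were the chromatin gene Cecr2 (0.99), Smoc1 (0.988), the E-cadherin gene Cdh1 (0.982), and Esrrb, a naive pluripotency receptor, and Camsap3 (0.981 each). Nearest to Sall3 were Vstm2l and Nsg2 (0.966 each), Dpysl5 (0.964), Smoc1 (0.962) and Rem2 (0.959). Nearest to Sall2 were Igsf9 (0.958), the forkhead gene Foxb1 (0.956), the BAF subunit gene Bcl7a (0.955), and Ccdc85c and the neural RNA-binding gene Msi1 (0.954 each). Cecr2 was at 1.99 ± 0.262 FPKM with NanogBiD at D7 and 0.0282 ± 0.0304 with NanogWT. Among the genes near Sall3, Nsg2 was at 32.5 ± 5.17 FPKM with NanogBiD at D12 and at 0.0682 in mES. The others near Sall3 stood in mES at 10.7 FPKM (Smoc1), 5.19 (Dpysl5), 1.16 (Vstm2l) and 0.18 (Rem2). Among those near Sall2, Foxb1 was at 4.25 ± 2.44 FPKM with NanogBiD at D12 and at 0 in mES. The others near Sall2 stood in mES at 27.7 FPKM (Ccdc85c), 19.6 (Msi1), 4.39 (Bcl7a) and 2.07 (Igsf9).

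Within the family Sall1 was closest to Sall3 (r = 0.953) and Sall2 (0.949), whereas Sall4 had r of 0.918 with Sall1, 0.90 with Sall2 and 0.89 with Sall3. Sall1 ranked 9 among all genes near Sall2 and 10 near Sall3, while Sall4 ranked 179 and 261. The order of group means also differed between members. For Sall4 mES and NanogBiD D12 led and overlapped, followed by NanogBiD D8 and D10, which overlapped each other, and then by D7, which stood apart from its neighbours. For Sall1 the lead was NanogBiD D12 and mES, which overlapped, and all 12 groups from NanogWT D10 down overlapped their neighbour. For Sall3 NanogBiD D12 led alone, followed by NanogBiD D10 and NanogWT D12, which overlapped, and mES was the fourth. For Sall2 NanogBiD D10 and D12 led and overlapped, and mES came 14 of 18, overlapping both neighbours.

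The pluripotency factors listed as Sall4 partners differed between the combinations in growing number from D5 to D12. Of the 19, all tested, 5 were called higher with NanogBiD at D5, 11 at D7, 14 at D10, and 15 on the last day, when 3.2%, 5.79%, 15.4% and 13.5% of all genes were called higher. Those called lower numbered 1 at D3, 0 at D5, 1 at D7, 2 at D10, and 1 on the last day. Of all genes, 2.45%, 3.28%, 4.65%, 12.3% and 9.97% were called lower on these days. The lower calls at D7, D10 and the last day were all of genes delivered by the vectors, whose values also count vector transcripts. The medians of the differences of the 19 were 0.06 at D3, 1.17 at D7 and 2.41 at D12, against 0.04, 0.08 and 0.17 over all genes. The gene called lower at D3 was Klf5 (-1.53, adjusted p = 0.000722), a Krüppel-like factor gene of pluripotent cells. At D7 the largest were Lin28a (4.80), which blocks let-7 maturation, Sox2 (3.31), Tfap2c (2.85) and Esrrb (2.46), all with an adjusted p of at most 1.64e-05. At D3 none of these had been called, with differences of 0.06 for Esrrb, 0.08 for Lin28a, 0.13 for Tfap2c and 0.73 for Sox2. Pou5f1, the lower one at D7 (-1.27, adjusted p = 0.0118), also counts vector transcripts. After quantile normalization it was not called, and the 11 higher calls at D7 numbered the same.

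The NuRD subunits, the corepressor that SALL proteins recruit, passed both the adjusted p and the size limit between the combinations at D10 alone among the days tested. Of the 15 listed genes 14 were tested, since Chd5 did not pass the filter. None was called at D0, D1, D3, D5, D7 or D12 between the combinations. By adjusted p alone, with no size limit, 1 of 14 was higher at D3, 6 were at D7, and 10 were higher and 2 lower at both D10 and D12. By that criterion 1709 of the 16842 genes tested passed at D3, 4779 at D7, 9358 at D10 and 8546 at D12. Those totals count both directions. At D10, when 15.4% of all genes were called higher and 12.3% lower, 5 of the 14 were higher with NanogBiD and none lower, the largest being Cdk2ap1 (1.39, adjusted p = 4.11e-06), the deacetylase gene Hdac1 (1.09), Mta1 (1.07) and Gatad2a (1.06). After rescaling to a common total 2 of these 5 were called (Cdk2ap1 and Hdac1), and after quantile normalization 6 were higher and Mbd2 lower. The list's median difference was 0.07 at D3, 0.39 at D7, 0.89 at D10 and 0.57 at D12, against 0.04, 0.08, 0.10 and 0.17 over all genes. In iPSC against MEF, where 21.7% of all genes were called higher and 18.7% lower, 4 of the 14 subunits were higher, led by Hdac1 (2.42), and 2 lower, the helicase gene Chd3 (-3.86) and the methyl-CpG reader gene Mbd2 (-1.64).

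In the established iPSC Sall4 was the leading member and Sall1 the next in every sample, with overlapping values for the 2 combinations. Sall4 ranged from 89.6 to 123 FPKM over the 6 NanogWT samples (median 102) and from 92.6 to 124 over the 6 of NanogBiD (median 111). Sall1 ranged from 17.8 to 24.0 FPKM and from 13.9 to 26.8 (medians 22.0 and 21.4). Sall3 ranged from 4.08 to 11.2 FPKM and from 4.69 to 16.9 (medians 9.31 and 9.96). Sall2 ranged from 1.21 to 4.42 FPKM and from 1.54 to 3.52 (medians 2.75 and 3.26). The sets made with NanogWT and NanogBiD overlapped for all 4 genes.

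Between NanogBiD and NanogWT iPSC, with line as a covariate, the differences were 0.07 for Sall4 (95% interval -0.14 to 0.29), -0.11 for Sall1 (-0.34 to 0.11), 0.11 for Sall3 (-0.50 to 0.72) and 0.14 for Sall2 (-0.33 to 0.61). The adjusted p was 0.999 for each, and 0% of the 12456 genes tested were called by limma, with 201 at an unadjusted p under 0.05. All 4 intervals lay inside a difference of 1 in either direction. Between the lines 0.883% of genes were called. Sall1 was higher in iPSC2, at 23.6 to 26.8 FPKM against 13.9 to 23.1, with ranges apart and a difference of 0.46 (95% interval 0.23 to 0.68, adjusted p = 0.0317) that was under the size limit. The intervals of the other 3 genes between the lines spanned 0.

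Against MEF, where 40.5% of 13312 genes were called, iPSC were higher in Sall4 by 6.74 (SE 0.12, adjusted p = 1.19e-15), in Sall1 by 4.06 (SE 0.20, adjusted p = 1.33e-10) and in Sall3 by 3.26 (SE 0.34, adjusted p = 5.67e-07). Sall4 was listed at 0 in both MEF samples, so its value depends on the pseudocount. Sall2 went the other way, from 5.38 and 5.42 FPKM in MEF to 1.21 to 4.42 in iPSC, without overlap. Its difference was -0.80 (95% interval -1.36 to -0.24, adjusted p = 0.0127), under the size limit, and it was -1.01 and called with a pseudocount of 0.1. All 12 iPSC were above the mES library in Sall4 (46.4 FPKM) and in Sall3 (2.72 FPKM), 8 of 12 in Sall1 (18.1 FPKM) and 2 of 12 in Sall2 (3.44 FPKM). With 1 mES library this has no test. The time-course table is per gene and the iPSC table was summed over transcripts, and mES Sall4 read 57.4 FPKM in one and 46.4 in the other, so the high late Sall2 of the time course (up to 21.1 FPKM) is set beside the iPSC values only as a description. The pluripotency markers summed to 1928 to 5307 FPKM over the 12 iPSC. The fibroblast markers summed to 1387 FPKM in NanogBiD iPSC1 sample 9 and to at most 434 in the other 11. Without that sample Sall4 averaged 107 FPKM, against 106 with it, and Sall1 21.9 against 21.2.

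**Figure D4:**
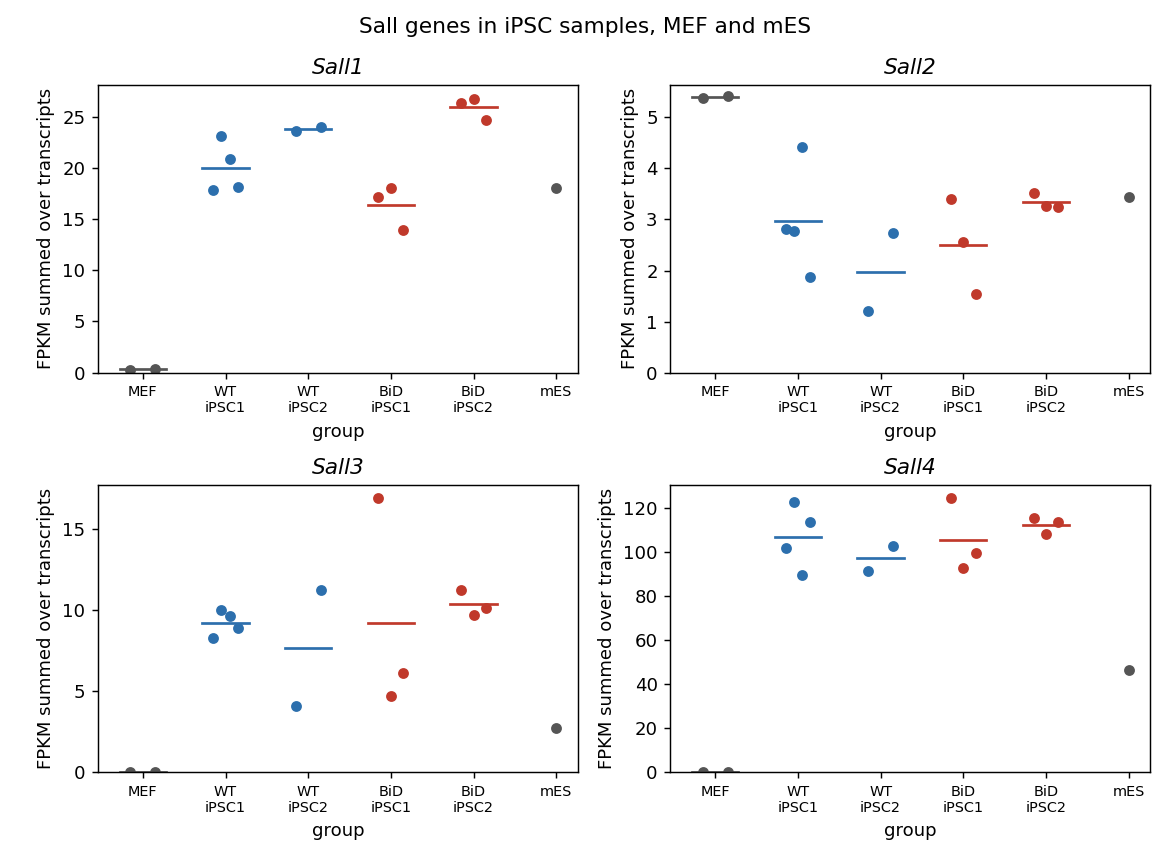
FPKM summed over transcripts (y axis, from 0) of each Sall gene in every sample of the transcript table by group (x axis); circles are samples and horizontal bars are group means. In Sall4 all 12 iPSC lie above mES (46.4 FPKM), in Sall2 all 12 lie below the MEF samples, and NanogWT and NanogBiD overlap in every panel.

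Transcripts were estimated in the iPSC table only. Sall4 has a long form, NM_175303 (1067 codons), a form with a shortened exon 2, NM_201395 (623 codons), and a form without exon 2, NM_201396 (278 codons). The shortened forms lack zinc fingers encoded by exon 2. NM_175303 and NM_201395 differ in the length of exon 2 (2367 against 1035 bases). The 3 forms can also be told apart where reads cross into exon 3 (capitals, 15 bases, first base at position 168752740 of chromosome 2). Each junction is shown because it marks 1 of these 3 forms (GENCODE M21, GRCm38, minus strand). None is shown for the predicted transcript named below.
NM_175303, end of full exon 2: gcgttgacaccgaagGTCGTACCAGCCTCC
NM_201395, end of shortened exon 2: acgaagtcgtcctcgGTCGTACCAGCCTCC
NM_201396, end of exon 1: cggcggaggaacccgGTCGTACCAGCCTCC
NM_201396 was at 0 in all 12 iPSC and in mES. NM_201395 took 0 to 17.3% of Sall4 (median 3.12%). The remainder was shared by NM_175303 and the predicted transcript XM_006500486, which the annotation used here did not hold. NM_175303 took over 50% in 9 of 12 iPSC and 77.4% in mES. In the other 3 samples, NanogWT iPSC1 sample 3, NanogBiD iPSC1 sample 9 and NanogBiD iPSC2 sample 3, it took 11.6%, 6.68% and 13.1%, and XM_006500486 took 75.8%, 76.1% and 74.9%. The same 3 samples had the 3 highest shares of NM_201395 (12.6%, 17.3% and 12.0%), and they come from both combinations and both lines. Their summed Sall4 (113.8, 99.6 and 113.4 FPKM) lay inside the range of the others.

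**Figure D5:**
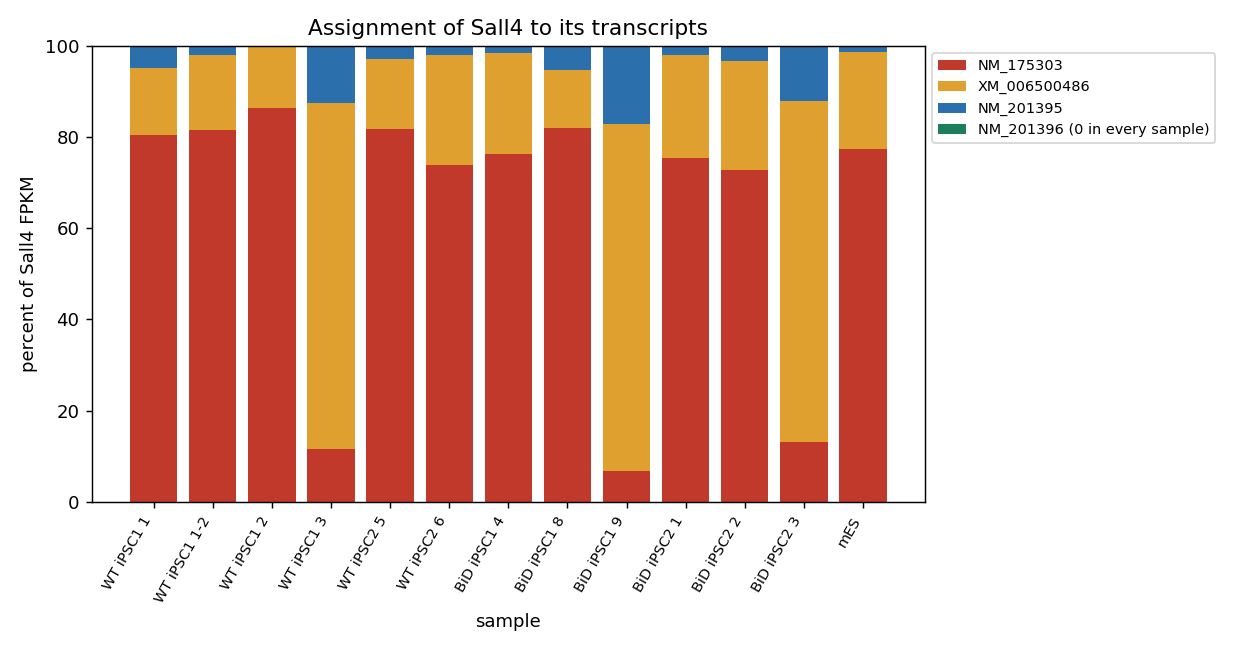
Percent of Sall4 FPKM assigned to each transcript (y axis) in the 12 iPSC samples and mES (x axis). In 9 iPSC samples and in mES the NM_175303 bar is the largest, and in WT iPSC1 3, BiD iPSC1 9 and BiD iPSC2 3 the XM_006500486 bar takes 74.9% to 76.1%.

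Sall1 and Sall2 also had samples in which the assignment passed from one transcript to another. Sall1 was assigned by over 50% to NM_021390 in 9 of 12 iPSC, with 100% in mES and MEF. In NanogWT iPSC1 sample 1 and NanogBiD iPSC1 sample 4 all of it, and in NanogWT iPSC1 sample 3 75.9%, went to the predicted XM_006531238. Sall3 was split in every iPSC, with 50.1% to 70.8% in NM_178280 (median 58.0%) and the rest in the predicted XM_006526459.

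Sall2 has a distal and a proximal start, and its transcripts differ in their first exon. RefSeq's windows from 250 bases before to 50 after each start are shown because Sall2 was assigned to one or the other start depending on the sample (GRCm38.p6, minus strand, CpG dinucleotides in capitals). The proximal window is that of NM_001244916. The distal one surrounds a RefSeq start at position 52328670, while the GENCODE transcript matched to NM_015772 starts at 52328762. The promoter table matched Sall1 (3 starts) and Sall2 (2 starts).
Sall2 distal start, chr14:52328621-52328920: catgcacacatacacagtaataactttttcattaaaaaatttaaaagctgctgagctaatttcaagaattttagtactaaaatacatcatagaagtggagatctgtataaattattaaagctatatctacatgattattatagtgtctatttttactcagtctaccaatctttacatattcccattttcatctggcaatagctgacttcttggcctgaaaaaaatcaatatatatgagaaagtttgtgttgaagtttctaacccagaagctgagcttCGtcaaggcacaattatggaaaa
Sall2 proximal start, chr14:52316274-52316573: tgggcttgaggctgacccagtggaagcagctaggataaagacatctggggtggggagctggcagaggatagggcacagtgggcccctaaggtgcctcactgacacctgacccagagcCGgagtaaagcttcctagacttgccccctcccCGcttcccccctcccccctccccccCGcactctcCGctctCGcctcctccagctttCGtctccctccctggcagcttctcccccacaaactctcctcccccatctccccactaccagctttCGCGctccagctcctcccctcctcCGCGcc
The distal window is 30.3% G or C with 1 CpG, and 1.16% of 32851 promoter windows of this length have as little G or C. The proximal window is 65.0% G or C with 10 CpG. A TATA box (TATAAA, either strand) occurs in the distal window and in 13.6% of all windows, and neither window holds a GC box (GGGCGG, in 35.7%) or an octamer (ATGCAAAT, in 1.74%). The proximal-start transcript NM_001244916 carried all of Sall2 in both MEF samples, in mES and in 9 of 12 iPSC. The distal-start transcript NM_015772 was assigned 100% in NanogBiD iPSC1 sample 9 (1.54 FPKM) and NanogWT iPSC2 sample 5 (1.21 FPKM) and 42.9% in NanogWT iPSC1 sample 3. These 3 samples were also the 3 lowest in summed Sall2, at 1.21 to 1.88 FPKM, against 2.56 to 4.42 in the other 9. NanogWT iPSC1 sample 3 and NanogBiD iPSC1 sample 9 were among those with the shifted Sall4 assignment. Transcript levels of one gene are estimates that draw on shared reads, the depth of these samples is unknown, and no test was run on the shares.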

How the data were processed

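RNA-seq of MEF, reprogramming cells, iPSC and mES was deposited as FPKM, 1 table per gene (34 libraries) and 1 per transcript (15 samples). Per the labels and methods, the authors trimmed reads with Trim Galore 0.6.4, aligned them to mm10 with HISAT2 2.2.1 and computed the deposited FPKM values with StringTie 2.2.1. The annotation and strandedness are not given in the sources used here, and labels and methods name different versions of the library kit.

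Here transcripts were summed per gene, and log2(FPKM + 1) was fitted with limma 3.58.1 (R 4.3.3, lmFit and eBayes with trend, two-sided, Benjamini-Hochberg adjustment over all genes tested). Genes needed 1 FPKM in at least 2 libraries. All 31 time-course libraries entered 1 fit with 1 mean per combination and day. This scale understates the change of low genes. The functions were tested on simulated data. Total depth is unknown. Relative depth came from the most frequent ratio of low values between a library and a reference library. FPKM are relative values, so a change in a few abundant genes moves the rest.

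The 4 genes were named whatever their values, with the 5 genes nearest to each by Pearson's r, and, from each list, counts of calls and up to 4 called members of largest size plus those at either end. The members and lists were chosen with earlier results of these data known. Alternatives were pseudocount, filter, scaling, size limit, samples in the fit, the replicate block and single libraries left out. Positions are from GENCODE M21 (GRCm38), promoters from RefSeq (GRCm38.p6). 1 result for a listed gene is not reported here.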

Additional observations from a re-analysis of the deposited data

Results flagged for a closer look

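The change from D0 differed between the 2 combinations, by the interaction contrast of the limma fit, for all 4 Sall genes at D7, where 10.1% of all genes were called, and for 2 at D12, where 23.9% were. At D7 the change with NanogBiD exceeded that with NanogWT by 3.22 for Sall4, 2.02 for Sall1, 1.75 for Sall3 and 1.14 for Sall2 (log2(FPKM + 1) scale, adjusted p of 4.88e-05, 0.00193, 7.09e-05 and 0.0274). At D12 it did so by 3.11 for Sall4 (adjusted p = 1.99e-05) and 1.65 for Sall1 (adjusted p = 0.00383). The Sall2 value rests on single libraries, as given above. Both contrasts use the same D0 libraries. Sall4 was at 0 in every D0 library, so its 2 values here repeat its differences at D7 and D12. Of the 8 groups of 6 iPSC samples looked at for a sample far from the rest (4 genes, 2 combinations), 0 had one.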

How the results depend on the processing

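Depth was unequal at D8 to D12, and D8 has 1 NanogBiD library. Over 62 values of the Sall genes and 682 alternatives, 641 kept both direction and call. The call for Sall4 at D3 was lost with no filter on low values (1.12, adjusted p = 0.0544), with only the groups compared in the fit (1.12, adjusted p = 0.0509) and with 1 library left out (1.05 to 1.19). The Sall2 difference of changes to D7 lost its call after rescaling (1.07), with only the groups compared (1.14) and with 1 library left out (0.91 to 1.38). Sall2 from D0 to D7 with NanogBiD lost it after quantile normalization (0.81) and with 1 library left out (0.86 to 1.33), Sall2 from D0 to D12 with NanogWT after quantile normalization (0.88), and the Sall1 difference of changes to D12 with a pseudocount of 0.1 (1.36). A pseudocount of 0.1 called Sall3 at D5 (3.05), its difference of changes to D12 (1.64) and Sall2 in iPSC against MEF (-1.01). With no fold limit 6 values were called, namely Sall3 at D5 (0.83) and D12 (0.74), its difference of changes to D12 (0.87, also called in 1 of the fits without 1 library, 0.71 to 1.02), Sall2 at D12 (0.65) and in iPSC against MEF (-0.80), and Sall1 between the lines (0.46). The sign changed in 14 cases, each of a value not called. Without 1 library these were Sall2 at D0 (-0.10 to 0.37) and D3 (-0.0309 to 0.56), Sall1 at D1 (-0.0612 to 0.15), Sall1 and Sall2 from D0 to D7 with NanogWT (-0.0197 to 0.23 and -0.11 to 0.0273) and Sall3 between the lines (-0.12). From D0 to D7 with NanogWT the sign also changed for Sall2 after rescaling (0.0686) and for Sall1 (-0.23) and Sall3 (-0.19) after quantile normalization, and between the lines for Sall2 after quantile normalization (0.0893) and without the covariate (0.00694) and for Sall4 with samples 1 and 1-2 averaged (0.00749) and without the covariate (0.00437). Where 1 library is left in a group it is assumed to vary like the others. The causes were not tested.

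Whether replicate numbers pair the libraries was undecided (correlation of deviations from -0.06 to 0.40, over 0.1 at 4 of 7 days), and the labels give only the numbers. With the replicate block Sall4 at D3 stayed at 1.12 (adjusted p = 0.0208), no Sall call changed, and genes called at D3 numbered 637 against 623.

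Counts of all genes called moved by over 1.5 times as follows. With no fold limit they were 321 at D0 (128 as reported), 551 at D1 (224), 1709 at D3 (623), 2755 at D5 (1091), 4779 at D7 (1758), 9358 at D10 (4676), 8546 at D12 (3946), 7381 and 6521 from D0 to D7 with NanogBiD and NanogWT (3171 and 2977), 10387 and 6420 to D12 (5850 and 2721), 2684 and 6249 for the differences of changes (1698 and 4020), 9339 for iPSC against MEF (5386) and 580 between lines (110). A pseudocount of 0.1 gave 196 at D0, 1011 at D3, 1689 at D5, 2716 at D7, 4846 to D7 with NanogBiD, 4253 to D12 with NanogWT and 235 between lines. With only the groups compared, 0 were called at D0 and D1 and 136 at D3. Without 1 library D0 gave 92 to 650 and D1 136 to 214, without sample 9 the lines gave 73, and without a filter 68. Quantile normalization moved the median of all genes from D0 to D7 from 0.24 to -0.01 with NanogBiD and from 0.12 to -0.05 with NanogWT, and to D12 from 0.34 to -0.01 and from 0.19 to -0.05. The share of calls that were higher then moved from 67.3% to 48.1%, 67.8% to 54.5%, 70.7% to 50.2% and 75.5% to 55.4%, and between lines from 42.7% to 52.8%. Rescaling moved the median of iPSC against MEF from 0.21 to 0.02.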
